A study of Mus musculus with 14 samples.

Results

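B-lineage commitment in marrow is carried by a small set of transcription factors and by the receptor for interleukin 7, and the 10 genes described here are Il7r, Ebf1, Pax5, Tcf3, Foxo1, Ikzf1, Ikzf3, Irf4, Bach2 and Lef1, chosen by symbol from the 55401 genes counted in each sample. They were measured by bulk RNA sequencing of marrow plugs flushed from the distal tibia, a site rich in bone marrow adipocytes, in male mice of 24 weeks on a mixed background labelled C57BL6/SJL. Of the 14 samples, 4 were BMAd-Pnpla2+/+ fed ad libitum (AL), 4 were BMAd-Pnpla2+/+ under 30% caloric restriction (CR) for 6 weeks, 3 were BMAd-Pnpla2-/- AL and 3 were BMAd-Pnpla2-/- CR. Each sample pooled the plugs of a pair of mice. In BMAd-Pnpla2-/- mice, Pnpla2, which encodes adipose triglyceride lipase, was deleted by a Cre placed within the adiponectin gene. FLPo expressed from the Osterix locus switches this Cre on, so that deletion was aimed at bone marrow adipocytes and not at B cells. In reporter mice the study also saw this Cre label a small subset of stromal/dendritic cells. By the study's description both genotypes carried FLPo and the Cre cassette, which itself lowers adiponectin, and BMAd-Pnpla2+/+ controls lacked the floxed Pnpla2 alleles.

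B cells arise in marrow from lymphoid progenitors. Il7r encodes the receptor chain through which interleukin 7 supports the survival and growth of pro-B and pre-B cells in the mouse. Tcf3, which encodes E2A, together with Foxo1 and Ebf1, starts the B-lineage programme, and Pax5 then commits cells to it. Ikzf1 and Ikzf3 encode Ikaros and Aiolos, zinc finger factors of lymphoid cells. Irf4 acts at the pre-B stage and again in plasma cells, Bach2 represses the plasma cell programme, and Lef1 is a partner of beta-catenin that is present in early B and T cells. In a plug of whole marrow, fewer cells of a type and less RNA per cell cannot be told apart.

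The promoters of 9 of the 10 genes were found in RefSeq (build GRCm38.p6), each as a window of 300 bases around the annotated start. Those of the pair of factors that fell under CR, Tcf3 and Bach2, are shown with those of Il7r and Pax5, which did not pass the test. In the GENCODE M21 annotation of GRCm38, the Tcf3 gene spans chr10:80409514-80433647, Bach2 chr4:32238804-32586108, Il7r chr15:9505788-9530176 and Pax5 chr4:44524757-44710487. The RefSeq start of Bach2 lies inside the span given to the gene by GENCODE. Capitals mark the E-box letters CANNTG, the kind of sequence that E2A binds, searched on both strands. The Tcf3 window lies on the minus strand at chr10:80433586-80433885, Bach2 on the plus strand at chr4:32417185-32417484, Il7r on the minus strand at chr15:9529827-9530126 and Pax5 on the minus strand at chr4:44710645-44710944.
Tcf3: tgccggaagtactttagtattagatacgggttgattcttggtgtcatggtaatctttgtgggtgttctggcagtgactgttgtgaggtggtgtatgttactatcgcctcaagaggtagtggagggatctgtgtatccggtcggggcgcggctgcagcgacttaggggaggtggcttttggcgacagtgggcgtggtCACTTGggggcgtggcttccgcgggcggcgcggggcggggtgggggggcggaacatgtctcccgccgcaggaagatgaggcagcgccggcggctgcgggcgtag
Bach2: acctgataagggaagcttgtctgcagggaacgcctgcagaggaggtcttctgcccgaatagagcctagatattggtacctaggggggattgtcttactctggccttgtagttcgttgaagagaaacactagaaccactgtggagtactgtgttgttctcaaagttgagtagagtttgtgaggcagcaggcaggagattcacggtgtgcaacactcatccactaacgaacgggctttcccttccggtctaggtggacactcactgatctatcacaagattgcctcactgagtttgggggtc
Il7r: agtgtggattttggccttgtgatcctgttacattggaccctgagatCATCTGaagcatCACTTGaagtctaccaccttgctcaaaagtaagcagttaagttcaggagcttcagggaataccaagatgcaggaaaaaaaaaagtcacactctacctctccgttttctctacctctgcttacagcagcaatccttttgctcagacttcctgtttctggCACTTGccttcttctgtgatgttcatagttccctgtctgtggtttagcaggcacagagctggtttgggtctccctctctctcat
Pax5: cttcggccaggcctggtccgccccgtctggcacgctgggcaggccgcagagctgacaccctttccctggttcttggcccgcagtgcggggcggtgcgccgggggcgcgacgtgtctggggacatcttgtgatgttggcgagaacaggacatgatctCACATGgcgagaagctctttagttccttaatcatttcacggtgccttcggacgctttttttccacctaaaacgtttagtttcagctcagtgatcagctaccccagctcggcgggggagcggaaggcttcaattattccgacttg
The Tcf3 and Pax5 windows held 1 E-box each, the Il7r window 3 and the Bach2 window 0. Of all 32851 RefSeq promoter windows of this length, 72.3% held at least 1, so the letters are common. The letters TTCNNNGAA, of the kind bound by STAT factors downstream of the interleukin 7 receptor, were found in the Il7r and Bach2 windows, in 1 of the Ikzf1 windows and in 8.30% of all windows. No member window held GTAAACA, the letters of a FOXO site, which 3.65% of all windows held. Of the 14 member windows, 2 held CCCNNGGG, the core of an EBF site (13.7% of all windows), and 4 held TGGGAA, the core of an Ikaros site (25.6%). For each core these windows came from 2 of the 9 genes. Lef1 has several windows, some of which overlap.

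The libraries held 18898324 to 21665553 gene counts each. The share of counts on the strand opposite to the protocol's was 4.42% to 4.51% on average in 3 of the groups and 50.2% ± 0.223 (SD, n = 3) in BMAd-Pnpla2-/- CR, so the libraries of that group were not stranded and library type and group cannot be told apart there. Counts made without regard to strand were therefore used in all samples. Such counts leave out reads that overlap a gene on the other strand: in the 11 stranded samples they came to 0.786 of the stranded count for Foxo1, 0.787 for Lef1 and 0.900 for Bach2, against 0.993 to 1.02 for the other members. Pnpla2 itself was read at 301, 174, 199 and 189.5 counts scaled to the library (CPM) in BMAd-Pnpla2+/+ AL, and rose to 804, 991, 1015 and 502 in BMAd-Pnpla2+/+ CR. It was read at 135, 170.1 and 131 CPM in BMAd-Pnpla2-/- AL and 177, 219 and 267 in BMAd-Pnpla2-/- CR, below every BMAd-Pnpla2+/+ sample of the same diet. The genotype difference passed the test under CR (log2 fold change -1.90, adjusted p = 0.0387, edgeR) and not in AL (-0.57).

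Per kilobase of merged exon, Tcf3 and Ikzf1 stood above the other members in all 4 groups. In BMAd-Pnpla2+/+ AL, the mean level was 89.9 ± 14.1 CPM per kilobase for Tcf3 and 65.5 ± 2.70 for Ikzf1 (SD, n = 4). Pax5 followed at 21.9 ± 12.0, Irf4 at 13.2 ± 5.71, Il7r at 10.2 ± 3.62, Ikzf3 at 9.51 ± 4.45, Ebf1 at 8.99 ± 3.60, Bach2 at 6.57 ± 3.53 and Foxo1 at 5.62 ± 1.49. Each of these from Pax5 to Foxo1 overlapped its neighbour in the order. Lef1 was lowest at 1.88 ± 0.903 CPM per kilobase, below every Foxo1 sample. The order at the top changed with diet: under CR Ikzf1 had the higher mean, 53.1 against 51.0 CPM per kilobase for Tcf3 in BMAd-Pnpla2+/+, where their ranges overlapped, and 59.8 against 44.97 in BMAd-Pnpla2-/-, where they did not.

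**Figure D1:**
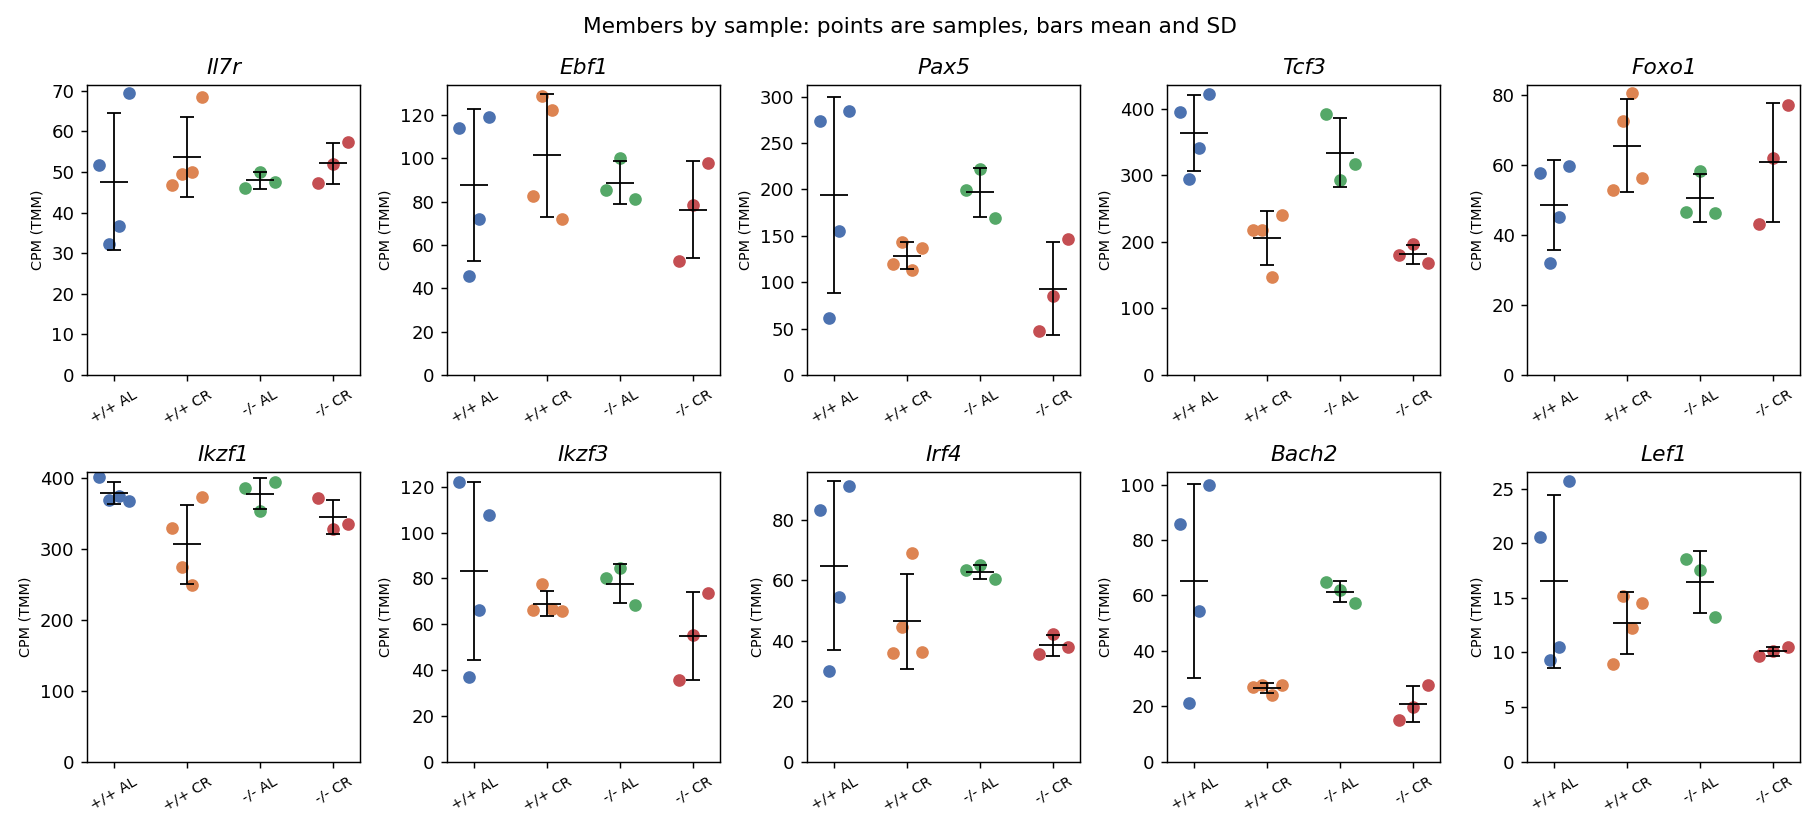
Level of each of the 10 genes in library-scaled counts, CPM (vertical axes, each from 0) in the 14 samples, by genotype and diet; points are samples and black bars the mean and SD. Tcf3 was lower in every CR sample than in any AL sample of its genotype, while the Il7r points of the 4 groups overlap.

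In BMAd-Pnpla2+/+ marrow, Tcf3 and Bach2 fell under CR, and the other 8 members did not pass the test. These 2 of 10 members were both lower, where 26% of the 17671 genes tested were called in either direction and 10.9% were called lower (edgeR quasi-likelihood test, Benjamini-Hochberg adjusted p under 0.05). Requiring a log2 fold change beyond 1 as well left Bach2, which was lower, against 9.28% of all genes in either direction and 1.94% lower. The median log2 fold change of the members was -0.34, and that of all genes tested 0.0028. A share of 2 in 10 is close to the background, so the members as a group were not set apart by how many were called.

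Tcf3, the E2A gene, was read at 396, 294, 341 and 422 CPM in the AL samples and at 218, 218, 148 and 240.4 in the CR samples. Every CR sample was below every AL sample, the 1 member of 10 without overlap in this genotype, against 10.4% of all genes lower without overlap. Its log2 fold change was -0.82 ± 0.15 (SE), with an edgeR adjusted p of 0.00413.

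Bach2, the repressor of the plasma cell programme, was read at 85.9, 21.1, 54.5 and 99.8 CPM in AL and at 26.8, 27.7, 24.0 and 27.8 in CR. The CR samples lay close together, and AL replicate 2 lay below all of them while the other AL samples lay above. The log2 fold change was -1.30 ± 0.35 (SE; edgeR adjusted p = 0.0181), and -1.59 without AL replicate 2. The call was lost without AL replicate 4 (edgeR adjusted p = 0.0515) or without CR replicate 3 (0.0533).

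The receptor and the early factors Ebf1 and Foxo1 did not pass the test. Il7r was read at 51.9, 32.2, 36.8 and 69.5 CPM in AL and at 46.9, 49.6, 50.03 and 68.5 in CR, with a log2 fold change of 0.17 ± 0.20 (SE; edgeR adjusted p = 0.536). An interval of 2 SE on each side ran from -0.23 to 0.58. Ebf1 was read at 114, 45.6, 72.1 and 119 CPM in AL and at 82.4, 129, 122 and 72.02 in CR, with a log2 fold change of 0.21 ± 0.29 (SE). Without AL replicate 2 that value was -0.0060. Foxo1, the forkhead factor of early B cells, was read at 57.7, 31.97, 45.2 and 59.8 CPM in AL and at 52.8, 72.6, 80.5 and 56.2 in CR (0.43 ± 0.22 SE; edgeR adjusted p = 0.153). For these 3 genes the AL and CR samples overlapped. Among the CR samples, Ebf1 and Foxo1 were highest in replicates 2 and 3, where Pnpla2 was also highest. The part of adipocytes or stromal cells in the Ebf1 and Foxo1 values was not tested.

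Pax5, the commitment factor, was widely spread among the AL samples. It was read at 274, 61.8, 155 and 285 CPM in AL, a range of 4.61 times, and at 119, 144, 113 and 137 in CR. Its log2 fold change was -0.60 ± 0.40 (SE; edgeR adjusted p = 0.275). Ikzf1 was read at 402, 369.8, 375 and 368 CPM in AL and at 329, 274, 249 and 373 in CR, with a log2 fold change of -0.30 ± 0.11 (SE) that lay just outside the threshold (edgeR adjusted p = 0.0611) and passed it with the deposited matrix (0.0459) and with DESeq2 (0.0415). The log2 fold changes of Ikzf3 (-0.27), Irf4 (-0.48) and Lef1 (-0.38) did not pass the test. Irf4 passed it without AL replicate 2 (-0.72, edgeR adjusted p = 0.0428).

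**Figure D2:**
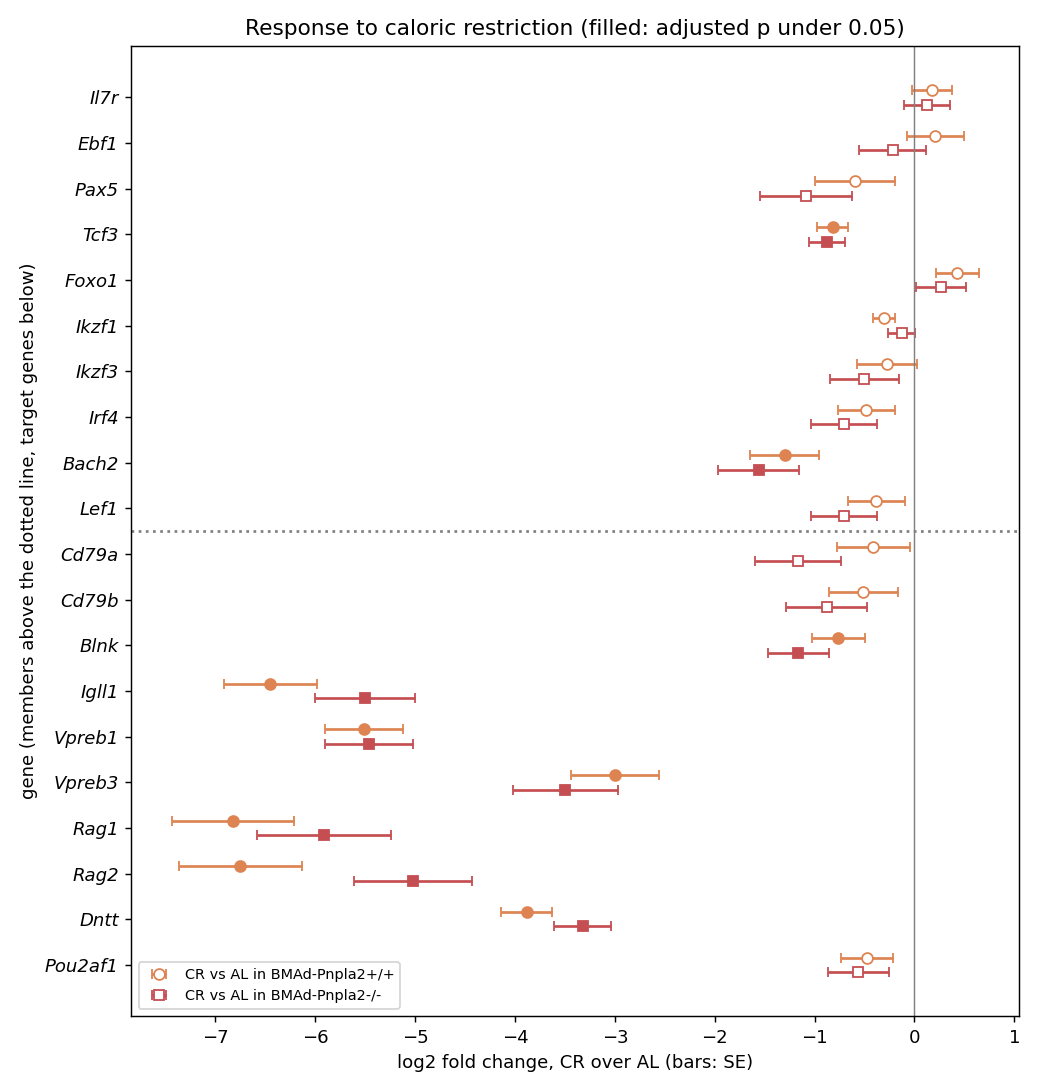
Log2 fold change of CR over AL (horizontal axis) for the 10 members, above the dotted line, and 10 other genes, below it. Those below are mostly genes of the B cell receptor, the pre-B receptor and recombination. Bars are SE, circles BMAd-Pnpla2+/+ and squares BMAd-Pnpla2-/-, filled where the adjusted p was under 0.05. Among the members only Tcf3 and Bach2 are filled, and Rag1 and Igll1 lie several log2 units below every member.

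In BMAd-Pnpla2-/- marrow the same 2 genes, Tcf3 and Bach2, fell under CR, where 11.6% of all genes were called and 5.57% were called lower (edgeR). With a log2 fold change beyond 1 as well, Bach2 remained, against 3.53% of all genes in either direction and 0.911% lower. The median log2 fold change of the members was -0.60, against 0.05 for all genes. The CR samples of 5 members, Pax5, Tcf3, Irf4, Bach2 and Lef1, lay below all AL samples, where 17.4% of all genes did so. In this genotype diet cannot be separated from library type.

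Tcf3 was read at 393, 293 and 316 CPM in AL and at 181, 196 and 168 in CR (log2 fold change -0.88 ± 0.18 SE; edgeR adjusted p = 0.0121). Bach2 was read at 64.9, 62.1 and 57.2 CPM in AL and at 15.2, 19.6 and 27.7 in CR (-1.56 ± 0.40 SE; edgeR adjusted p = 0.0285). For both genes the groups did not overlap. Leaving out CR replicate 3 ended both calls (edgeR adjusted p = 0.0596 for Tcf3 and 0.0576 for Bach2), and the Bach2 call was also lost without AL replicate 1 (0.0752), AL replicate 3 (0.0660), CR replicate 1 (0.0732) or CR replicate 2 (0.0876). CR replicate 3 held 839 counts of Acta1, the skeletal muscle actin, against 4 to 236 in the other samples, and the part of muscle RNA in these values was not tested.

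Pax5 was read at 199, 222 and 169.6 CPM in AL and at 46.8, 85.3 and 147 in CR, with a log2 fold change of -1.08 ± 0.46 (SE; edgeR adjusted p = 0.141). Irf4 was read at 63.2, 64.9 and 60.3 CPM in AL and at 35.5, 42.2 and 37.8 in CR (-0.71 ± 0.33 SE). Lef1 was read at 18.5, 17.5 and 13.2 CPM in AL and at 9.70, 10.1 and 10.5 in CR (-0.70 ± 0.33 SE). The CR samples of these 3 genes were the lower ones without exception, and none passed the test. In a fit of these 2 groups alone, Irf4 (edgeR adjusted p = 0.00800) and Lef1 (0.0215) did.

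Il7r was read at 46.1, 50.1 and 47.5 CPM in AL and 47.2, 51.9 and 57.4 in CR (log2 fold change 0.12 ± 0.23 SE). Ebf1 was read at 85.1, 100.1 and 81.0 CPM in AL and at 52.7, 78.5 and 97.7 in CR (-0.22 ± 0.33 SE). Foxo1 was read at 46.7, 58.4 and 46.3 CPM in AL and at 43.2, 62.1 and 77.1 in CR (0.27 ± 0.25 SE). The groups overlapped for all 3. The log2 fold changes of Ikzf1 (-0.13) and Ikzf3 (-0.50) did not pass the test either. The choice of count mattered for the genes with a partner on the other strand: from the deposited matrix, which mixes stranded counts with unstranded ones for BMAd-Pnpla2-/- CR, Lef1 was called (-1.13, edgeR adjusted p = 0.0238) and Foxo1 changed sign (-0.08).

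No member was called between genotypes. In AL, 0% of all genes were called, with 0 of 10 members at an unadjusted p under 0.05 against 3.96% of all genes (edgeR), and the members' log2 differences, BMAd-Pnpla2-/- over BMAd-Pnpla2+/+, ran from -0.12 for Tcf3 to 0.05 for Foxo1. Under CR, 0.0113% of all genes were called, and the differences ran from -0.47 for Pax5 to 0.17 for Ikzf1, with 0 of 10 members at an unadjusted p under 0.05 against 23.2% of all genes (edgeR). DESeq2 also called 0 members in each. The difference between the CR responses of the 2 genotypes ran from -0.49 for Pax5 to 0.18 for Ikzf1, with 0 members and 0% of all genes called, and with 0 members at an unadjusted p under 0.05 against 10.4% of all genes (edgeR). The intervals were wide: for Bach2 the difference of the responses, with 2 SE on each side, ran from -1.30 to 0.78. Under CR, and so in the difference of the responses, genotype cannot be separated from library type.

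**Figure D3:**
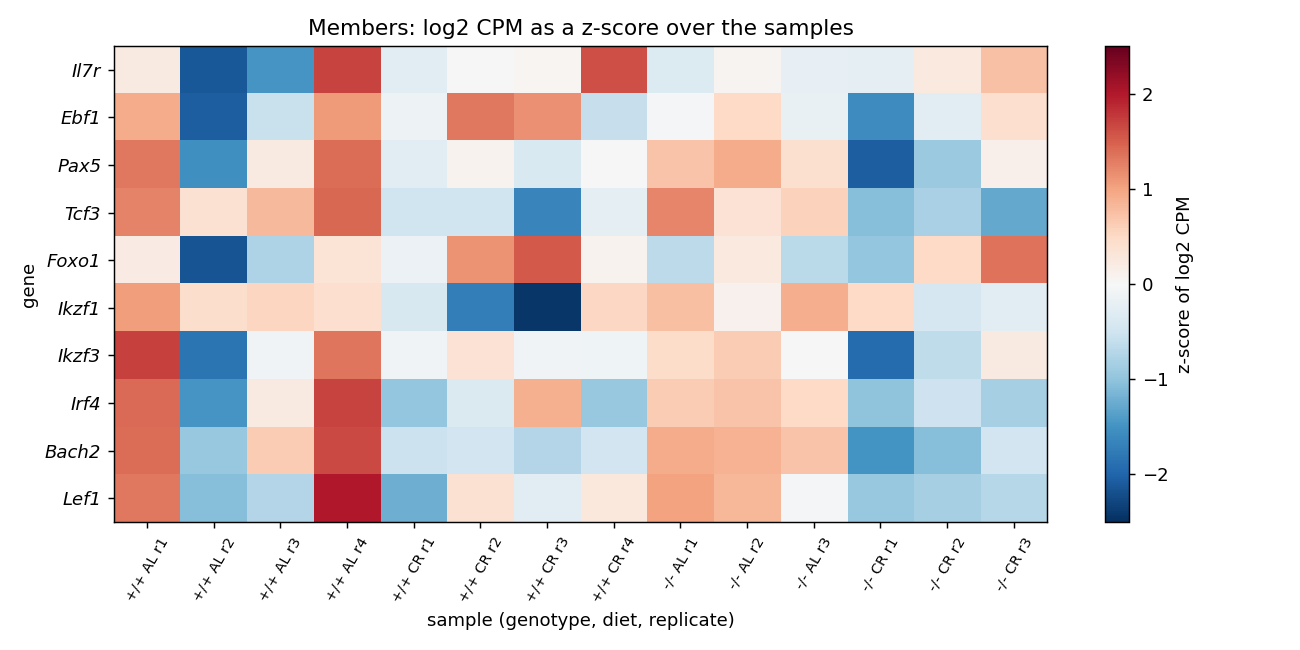
Log2 CPM of each member as a z-score over the 14 samples (colour, red high and blue low), with samples in columns by group and genes in rows. BMAd-Pnpla2+/+ AL replicate 2 is blue for 8 of the 10 genes, and AL replicate 4 of the same genotype is red.

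Within the BMAd-Pnpla2+/+ AL group most members were low or high in the same samples. Among the 7 AL samples of both genotypes, replicate 2 of BMAd-Pnpla2+/+ was the lowest for 8 of 10 members, the exceptions being Tcf3 and Ikzf1, and replicate 4 was the highest for 8 of 10. Cd79a, a signalling chain of the B cell receptor, was read at 286, 69.3, 214 and 369 CPM in the 4 BMAd-Pnpla2+/+ AL samples, in the same order as Pax5. Over all 14 samples, Cd79a and Cd79b, the other signalling chain, were among the 3 of 13042 candidate genes whose centred log2 CPM was closest to that of Pax5, with root mean square differences of 0.163 and 0.169. The closest to Ebf1 were Hivep2 (0.150), Tlr9 (0.163) and Gm43388 (0.173), and the closest to Il7r were Pced1b (0.157), Ttpal (0.162) and Gm42979 (0.167).

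Each member was also set against the mean log2 CPM of Cd79a and Cd79b in the same sample, a scale chosen after the data were seen. On it, the 4 BMAd-Pnpla2+/+ AL samples drew together for Bach2, whose log2 ratio was -1.51 ± 0.0388 in AL and -2.34 ± 0.0539 in CR (SD, n = 4 each). Like the reference pair, Bach2 was near Pax5 over these same samples, at a root mean square difference of 0.339. The drawing together is therefore not a separate result. The groups no longer overlapped, and the difference of -0.83 gave an exact two-sided permutation p of 0.0286, the smallest that 4 against 4 allow, and 0.286 after adjustment over 20 tests. In BMAd-Pnpla2-/- the Bach2 ratio was -1.64 ± 0.131 in AL and -2.16 ± 0.160 in CR (SD, n = 3 each), also without overlap, with an exact p of 0.1, the smallest possible there. Of all genes tested, 0.538% were lower without overlap on this scale in BMAd-Pnpla2+/+ and 0.283% in BMAd-Pnpla2-/-.

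The scale itself moved with diet. The mean log2 CPM of Cd79a and Cd79b was 7.33 ± 1.01 in AL and 7.08 ± 0.138 in CR in BMAd-Pnpla2+/+ (SD, n = 4 each), and 7.58 ± 0.184 in AL and 6.50 ± 0.548 in CR in BMAd-Pnpla2-/- (SD, n = 3 each). Relative to this pair, 74.6% of all genes were higher without overlap in BMAd-Pnpla2-/- and 2.88% in BMAd-Pnpla2+/+, where 0 of 10 members were.

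On this scale Tcf3 differed by -0.58 under CR in BMAd-Pnpla2+/+, with overlap, and its difference in BMAd-Pnpla2-/- was 0.21, of the opposite sign to its fall in CPM. Il7r, Ebf1, Foxo1, Ikzf1 and Ikzf3 were higher relative to the B cell genes in every BMAd-Pnpla2-/- CR sample than in any AL sample, by 1.20, 0.82, 1.32, 0.95 and 0.52 log2 units. These 5 of 10 members stand against the 74.6% of all genes, and in CPM the log2 fold change of Il7r was 0.12 and that of Ebf1 -0.22, so most of these differences is the fall of the reference pair. Pax5 differed by -0.13 and -0.15 in BMAd-Pnpla2+/+ and BMAd-Pnpla2-/-, with overlap in both. The reference pair was among the genes closest to Pax5 over these same samples, so this small difference is not a separate result. None of the 20 tests passed after adjustment, and none could have, since the smallest adjusted p that these sample numbers can give is 0.0571.

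**Figure D4:**
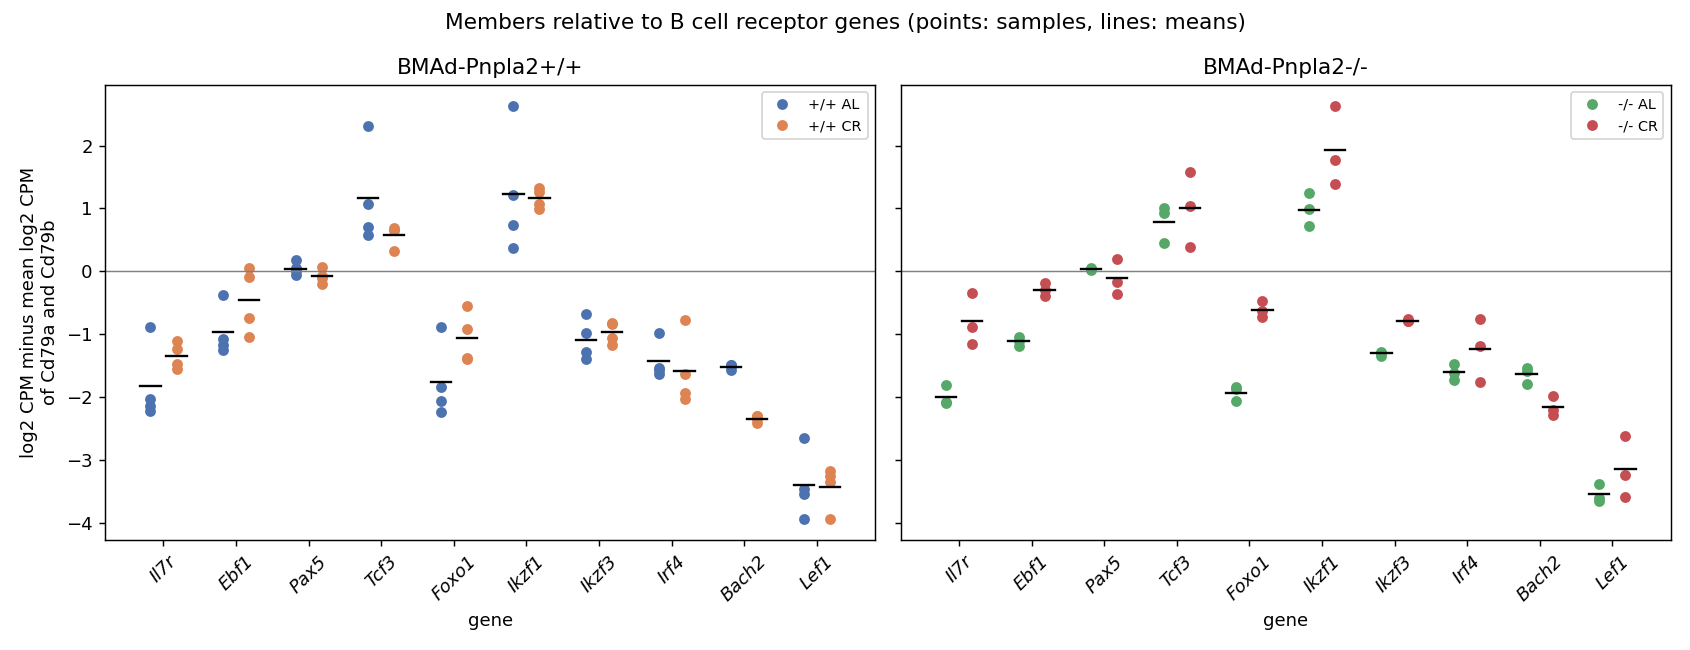
Log2 CPM of each member minus the mean log2 CPM of Cd79a and Cd79b in the same sample (vertical axis), AL beside CR, with BMAd-Pnpla2+/+ on the left and BMAd-Pnpla2-/- on the right; points are samples and lines means. Bach2 is the 1 member whose CR samples lie below its AL samples in both genotypes.

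Genes of the pre-B receptor and of recombination, on which these factors are known to act in pro-B and pre-B cells, fell under CR. Of 10 genes, mostly of the B cell receptor, the pre-B receptor and recombination, 7 were called lower and 0 higher under CR in each genotype. Of all genes, 10.9% were called lower in BMAd-Pnpla2+/+ and 5.57% in BMAd-Pnpla2-/-. The median log2 fold changes of the 10 genes were -3.44 and -3.41. Dntt, which adds bases at immunoglobulin junctions, fell by 3.88 on the log2 scale in BMAd-Pnpla2+/+ (edgeR adjusted p = 1.01e-05) and had means of 42.0 CPM in AL and 2.84 in CR. Vpreb1 and Igll1, the surrogate light chain of the pre-B receptor, fell by 5.51 and 6.45. Rag2, of the recombinase, held 43 to 152 counts per AL sample of BMAd-Pnpla2+/+, whereas its CR samples held 0, 2, 1 and 0. Cd79a and Cd79b, which mature B cells also carry, did not pass the test in either genotype. Their log2 fold changes were -0.41 and -0.51 in BMAd-Pnpla2+/+, with overlap. In BMAd-Pnpla2-/- they were -1.17 (edgeR adjusted p = 0.0912) and -0.88 (0.166), with every CR sample below every AL sample. Of 5 mature B cell markers, 0 were called in either genotype, with medians of 0.15 and -0.29.

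Of 17 genes of the interleukin 7 pathway, 2 were called higher and 2 lower in BMAd-Pnpla2+/+, close to the 26% of all genes called there. In BMAd-Pnpla2-/- 1 was called higher, where 11.6% of all genes were called, and the medians were 0.04 and -0.11. Bcl2, a survival gene, rose in both genotypes, by 0.78 and 0.73 log2 units. In BMAd-Pnpla2+/+, Socs2, an inhibitor of cytokine signalling, rose by 0.99, whereas Ccnd3, a cyclin, fell by 0.58 and Mcl1, another survival gene, fell by 0.27.

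Of 16 partner factors of lymphoid cells, 5 were called lower and 1 higher in each genotype, with medians of -0.20 and -0.30. Of all genes, 26% were called with the BMAd-Pnpla2+/+ samples and 11.6% with the BMAd-Pnpla2-/- ones, and 10.9% and 5.57% were called lower. Spib, an Ets factor of B cells and plasmacytoid dendritic cells, fell by 1.84 and 2.02 log2 units, Myb by 1.11 and 0.89, and Irf8 by 0.48 and 0.62. Bcl11a fell by 0.55 in BMAd-Pnpla2+/+ and its value of -0.22 in BMAd-Pnpla2-/- did not pass the test. The AL and CR samples of BMAd-Pnpla2+/+ overlapped for Spib, Irf8 and Bcl11a, and not for Myb. Spib was read at 46.3 CPM in AL replicate 2 of that genotype, within the CR range of 38.25 to 53.46. Of 12 tested relatives of the members, 5 were called higher and 1 lower in BMAd-Pnpla2+/+, with a median of 0.54, and 0 in BMAd-Pnpla2-/-, with a median of 0.44, where 15.1% and 6.04% of all genes were called higher. In BMAd-Pnpla2+/+, Tcf7, Tcf7l1 and Tcf7l2, of the same family as Lef1, rose by 1.42, 1.85 and 0.89 log2 units, and Ebf4 by 1.36.

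Markers of other cells moved as well, and their part in the members' values was not tested. Of all genes, 15.1% were called higher and 10.9% lower in BMAd-Pnpla2+/+, and 6.04% and 5.57% in BMAd-Pnpla2-/-, to be read beside each count. Of 7 T cell markers, some of whose cells also carry Il7r, Lef1 and Ikzf1, 4 were called higher in BMAd-Pnpla2+/+ and 2 in BMAd-Pnpla2-/-, and their summed level was 102 to 178 CPM in BMAd-Pnpla2+/+ AL and 162 to 210 in CR. Cd8a rose by 1.37 and 1.02 log2 units. Of 5 adipocyte markers, 5 were called higher in each genotype. Of 5 neutrophil markers, 4 were called lower in BMAd-Pnpla2+/+ and 0 in BMAd-Pnpla2-/-, with summed levels of 10140 to 13970 CPM in BMAd-Pnpla2+/+ AL and 4309 to 8389 in CR. Of 4 plasmacytoid dendritic cell markers, Bst2 was called lower in both genotypes. Of 7 plasma cell markers, Prdm1 was called higher in BMAd-Pnpla2+/+ (0.88) and 0 in BMAd-Pnpla2-/-, and of 7 markers of natural killer and innate lymphoid cells, Rora was called higher in both (1.39 and 1.24). Of 5 stromal markers, 2 were called higher in BMAd-Pnpla2+/+ and 1 in BMAd-Pnpla2-/-, and of 5 macrophage markers 2 and 0. Of 4 stem and progenitor markers, 2 were called higher and 1 lower in BMAd-Pnpla2+/+, and 1 higher in BMAd-Pnpla2-/-. Of 5 erythroid markers, 0 were called in either.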

How the data were processed

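Distal tibial marrow of 14 samples was sequenced as paired ends. The authors aligned reads to mm10 with STAR and deposited raw gene counts per sample, without regard to strand and for each strand, with a matrix of raw counts; the annotation release is not given in the sources used here. The unstranded counts were tested with edgeR 4.0.16 (R 4.3.3) in 1 model of the 4 groups, with TMM scaling and the default filter on low counts, which kept 17671 genes; calls had a Benjamini-Hochberg adjusted p under 0.05. CPM are counts scaled to the TMM library size, and log2 CPM used a prior count of 2. Lengths and overlaps came from GENCODE M21. Replicates are pools of mice. The script was tested on simulated data. The members and gene lists were chosen with earlier results of these data known. Named were all members, Pnpla2, Cd79a and Cd79b, up to 4 called genes per list by adjusted p in BMAd-Pnpla2+/+, and the nearest 3 patterns to Il7r, Ebf1 and Pax5 among genes of mean count 50 or more; Rag1 in a caption was chosen after its value was seen. A gene of the lists is not reported here. Alternatives were the deposited matrix, RLE and total-count scaling, no filter, DESeq2 1.42.0, fits of the compared groups alone, a replicate block and leaving out each sample.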

Additional observations from a re-analysis of the deposited data

Results flagged for a closer look

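Within BMAd-Pnpla2+/+ CR, 1 sample stood apart for a pair of members. Il7r was higher in replicate 4, at 68.5 CPM, than in the other samples, at 46.9 to 50.03, and the gap was 0.853 of the group's range. Ikzf3 was higher in replicate 2, at 77.3 CPM against 65.9 to 66.4, with a gap of 0.957 of the range. Both exceed Dixon's critical value of 0.829 for 4 samples, in 22 groups checked, and chance passes it in about 1 group of 20. The cause was not tested.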

How the results depend on the processing

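Tcf3 and Bach2 kept a negative log2 fold change under each alternative run, with 1 exception: relative to Cd79a and Cd79b, a scale added after the data were seen, Tcf3 in BMAd-Pnpla2-/- became 0.21. The count of 2 members called in BMAd-Pnpla2+/+ became 1 without the filter or with the fold rule, and 1 to 3 when a sample was left out. With the deposited matrix and with DESeq2, Ikzf1 joined Tcf3 and Bach2 there. In BMAd-Pnpla2-/- the count became 1 without the filter or with the fold rule, 4 in a fit of the groups compared, and 0 to 2 when a sample was left out. With the deposited matrix, Lef1 joined Tcf3 and Bach2 in that genotype. No call was made between genotypes under any of these. Of the lists in BMAd-Pnpla2-/-, the interleukin 7 pathway had 2 calls with the deposited matrix or without the filter and 3 with DESeq2, against 1, and the relatives had 2 with the deposited matrix and 1 with total counts, against 0. Total counts moved the median of all genes in BMAd-Pnpla2-/- to 0.12.

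Relative to Cd79a and Cd79b, signs also turned for Ebf1 (0.82), Ikzf1 (0.95), Ikzf3 (0.52), Irf4 (0.37) and Lef1 (0.40) in BMAd-Pnpla2-/-, and for Ikzf3 (0.12) in BMAd-Pnpla2+/+. Foxo1 turned in BMAd-Pnpla2-/- with the deposited matrix (-0.0751). With a sample left out, Ebf1 in BMAd-Pnpla2+/+ ran from -0.0060 to 0.39. Between genotypes under CR, Il7r ran from -0.12 to 0.10 and Foxo1 from -0.32 to 0.0853. The difference of the responses ran from -0.29 to 0.10 for Il7r, -0.20 to 0.0285 for Tcf3, -0.37 to 0.0328 for Foxo1, -0.51 to 0.0169 for Ikzf3, -0.44 to 0.0312 for Irf4 and -0.54 to 0.0336 for Bach2. None of these was called.

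Correlations of the deviations of same-numbered samples ran from -0.38 to 0.33, with 7 of 19 pairs over 0.1. Those of differently numbered samples ran from -0.44 to 0.36. With the number as a block, 3 members were called in BMAd-Pnpla2+/+, Ikzf1 joining at -0.32, and 2 in BMAd-Pnpla2-/-, and Il7r between genotypes under CR became 0.13. With 3 or 4 samples a group, differences below about 2 SE could not be told from 0. Some beyond 2 SE did not pass the adjusted test either, such as Ikzf1 in BMAd-Pnpla2+/+ and Pax5 in BMAd-Pnpla2-/-.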
